A study of Homo sapiens with 2 samples.

Results

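This account concerns JUNB binding around 10 genes for transcription factors that shape fibroblasts and other mesenchymal cells: RUNX1, RUNX2, KLF4, KLF5, KLF6, TWIST1, TWIST2, PRRX1, TCF21 and SNAI2. The genes were chosen by name, out of 19974 protein-coding genes on chromosomes 1 to 22 and X. A JUNB peak was counted for a gene when its summit lay within 50 kb of the RefSeq gene span on GRCh38. By this rule 46 of 32550 untreated peaks and 33 of 25739 peaks after etoposide belonged to the genes. The peaks came from CUT&RUN, in which an antibody, here against JUNB, brings a nuclease to chromatin and the released DNA fragments are sequenced. The cells were IMR-90, a long-established line of human lung fibroblasts. There was 1 library from cells given no treatment and 1 from cells treated with etoposide (ETO), a topoisomerase II poison that causes DNA breaks and is used to bring fibroblasts into senescence. The etoposide dose and exposure time are not given in the sources used here. With 1 library per condition no test of the treatment was possible, and an effect of etoposide and a difference between single libraries cannot be told apart. Peak lists do not measure expression, so whether the 10 genes are transcribed in these cells, and the fibroblast identity itself, were not tested.

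JUNB is a subunit of AP-1, a dimer of JUN and FOS family proteins that binds the letters TGANTCA, mostly at enhancers. RUNX proteins bind DNA together with CBFB and are known to meet AP-1 at many enhancers, while the KLF proteins are zinc-finger factors that bind GC-rich DNA. TWIST1, TWIST2 and TCF21 are basic helix-loop-helix factors, PRRX1 is a homeodomain factor of mesenchyme, and SNAI2 is a zinc-finger repressor known from the epithelial to mesenchymal transition.

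JUNB peaks were found near 9 of the 10 genes in both libraries. All protein-coding genes had such a peak in 72.0% of cases for the untreated library and in 62.6% for etoposide. TCF21 was the gene without any. A peak is called shared here when at least 1 bp of it overlaps a peak of the other list, and 8 of the 10 genes had a shared peak, where 51.1% of all protein-coding genes did. KLF5 had peaks in both lists but no shared one. With the etoposide library, 5 genes had fewer peaks than with the untreated library (RUNX1, RUNX2, KLF6, PRRX1 and SNAI2), 4 had equal numbers (KLF4, KLF5, TWIST1 and TWIST2) and 0 had more. Over all protein-coding genes these shares were 45.6% with more untreated peaks, 17.6% equal with at least 1, and 12.9% with more etoposide peaks. A few genes carried most of the peaks, RUNX1 alone holding 15 untreated and 12 etoposide peaks. Within 10 kb of the gene, 8 of the 10 genes had an untreated peak (49.6% of all protein-coding genes), 5 an etoposide peak (38.9%) and 4 a shared peak (29.8%).

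**Figure D1:**
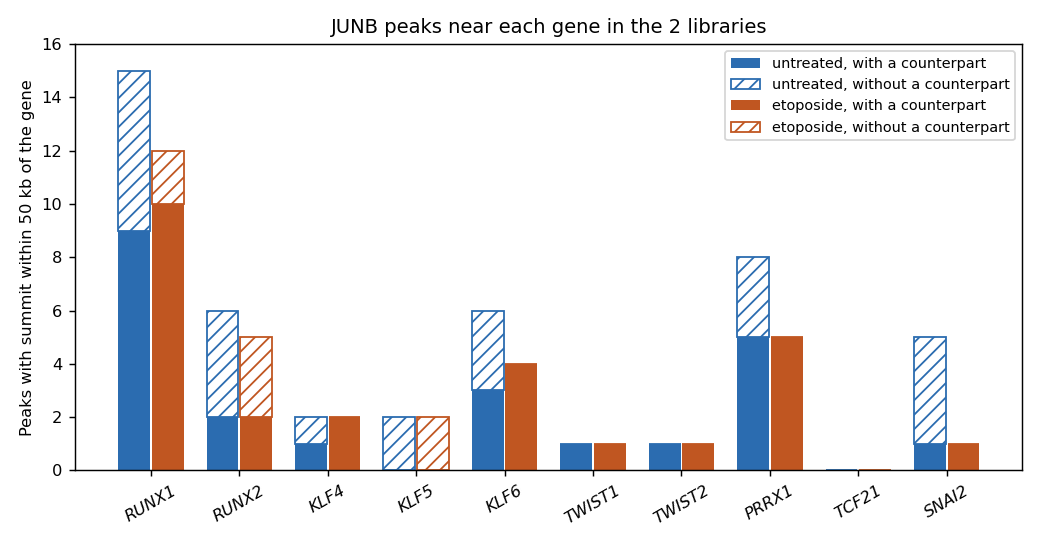
Number of JUNB peaks (vertical axis, peaks with a summit within 50 kb of the gene) for each of the 10 genes in the untreated (blue) and etoposide (orange) library, 1 library each, so there are no error bars. Filled parts of a bar are peaks with a counterpart in the other list and hatched parts are peaks without one: RUNX1 leads with 15 and 12 peaks, TCF21 has 0, and KLF5 has hatched parts alone.

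At the gene starts, 3 RefSeq promoters show the cases the data bear on. The promoter table, which gives 250 bases before and 50 bases after a start, held 10 promoters for 8 of the 10 genes, with no entry for TWIST1 or SNAI2. Peaks of the untreated list overlapped 2 of the 10 promoters, those of RUNX1 and KLF4, and peaks of the etoposide list overlapped 0. Over 22132 promoters of protein-coding genes these shares were 11.0% and 3.13%. Promoters of RUNX1 (chr21:34888650-34888949, minus strand) and KLF4 (chr9:107489720-107490019, minus strand) are shown because the edge of an untreated peak reached into them, and the capitals mark the bases it covered. The first promoter of RUNX2 (chr6:45328080-45328379, plus strand) is shown because it holds an AP-1 letter match, in capitals, without a listed peak. All are 5′ to 3′ from RefSeq on GRCh38.p14.
RUNX1: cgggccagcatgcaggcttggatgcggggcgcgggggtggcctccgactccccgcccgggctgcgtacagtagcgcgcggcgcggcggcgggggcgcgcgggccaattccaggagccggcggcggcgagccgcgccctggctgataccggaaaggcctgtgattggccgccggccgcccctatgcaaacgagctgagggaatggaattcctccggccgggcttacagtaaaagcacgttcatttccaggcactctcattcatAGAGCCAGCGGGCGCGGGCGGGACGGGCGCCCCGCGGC
KLF4: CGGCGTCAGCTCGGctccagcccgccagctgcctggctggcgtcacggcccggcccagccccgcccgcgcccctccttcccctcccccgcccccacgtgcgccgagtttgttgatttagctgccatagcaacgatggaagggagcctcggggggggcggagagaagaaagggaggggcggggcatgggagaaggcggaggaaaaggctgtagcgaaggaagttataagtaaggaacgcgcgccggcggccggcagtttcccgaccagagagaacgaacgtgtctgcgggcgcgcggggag
RUNX2: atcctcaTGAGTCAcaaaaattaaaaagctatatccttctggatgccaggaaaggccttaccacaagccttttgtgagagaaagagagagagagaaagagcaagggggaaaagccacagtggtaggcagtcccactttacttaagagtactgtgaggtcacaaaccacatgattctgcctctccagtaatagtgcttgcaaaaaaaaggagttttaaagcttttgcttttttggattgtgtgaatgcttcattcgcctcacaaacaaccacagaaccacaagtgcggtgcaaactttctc

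The untreated peak covered 38 bases at the 3′ end of the RUNX1 promoter and 14 bases at the 5′ end of the KLF4 promoter. The motif TGANTCA was searched on both strands, which is the same search because it reads alike on either, and was found in 1 of the 10 promoters. That match, TGAGTCA, began 243 bases before the first RefSeq start of RUNX2. Among all 22132 promoters 6.15% held TGANTCA. The related letters TGACGTCA, which are a different match, also alike on both strands, were in 0 of the 10 promoters and in 2.26% of all. These matches describe letters in a 300-base window. The sequence under the other peaks was not used here.

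RUNX1, on chromosome 21 from 34787801 to 35049302 and read from the higher to the lower coordinate, had the most peaks by count, in the widest window of the 10 genes (362 kb). Per Mb it came after KLF6, SNAI2 and PRRX1 in the untreated list and after KLF6 in the etoposide list. Its window held 41.5 untreated peaks per Mb, above the density of 94.9% of protein-coding genes, and 33.2 etoposide peaks per Mb, above that of 96.1%. Of 15 untreated peaks 13 had their summit inside the gene, and of 12 etoposide peaks 11 did. Joined across the lists they made 17 regions, of which 9 were in both lists, 6 were untreated without a counterpart and 2 were etoposide without a counterpart. At RUNX1, 9 of 15 untreated and 10 of 12 etoposide peaks were shared, beside 51.0% and 64.8% of the whole lists.

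The strongest RUNX1 pair lay just inside the 5′ end of the longest gene model. Fragments stacked at a summit, a whole number solved from the deposited fold and -log10 p, give the depth behind each peak. At this place the untreated peak, 35047127 to 35047945, had 58 fragments (exact Poisson 95% interval 44.0 to 75), and the etoposide peak, 35047404 to 35047929, had 34 (23.5 to 47.5). Their summits were 18 bp apart, 1.75 and 1.77 kb into the gene. The authors' -log10 q was 39.9 in the untreated list, rank 421 of 32550, and 21.5 in the etoposide list, rank 1164 of 25739. All such intervals cover counting error alone, and fragment numbers are not scaled between the libraries, whose listed peaks had medians of 15 untreated and 13 etoposide fragments.

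Further strong RUNX1 sites lay deep in the gene. A double site 6.54 and 6.93 kb downstream of the proximal RefSeq start, inside the antisense transcript gene RUNX1-AS1, had 43 and 33 untreated fragments and 27 and 26 etoposide fragments. Summits of that double site differed between the libraries by 6 and 29 bp. A site 26.9 kb upstream of the same start had an untreated fold of 14 with 34 fragments and an etoposide fold of 8.23 with 15 fragments. The site 80.8 kb downstream of the start had 48 untreated fragments (35.4 to 63.6) and 21 etoposide fragments (13.0 to 32.1). It was the 1 pair among all 23 of these genes whose fragment intervals lay apart. The summits of that pair were 290 bp apart, so its numbers belong to different positions within the overlapping peaks. Over all 16610 shared untreated peaks, 2.89% had such intervals apart with etoposide lower.

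Several RUNX1 peaks were in 1 list. The untreated peak at the proximal start, 34888182 to 34888687 with its summit 0.349 kb downstream of the start, had 25 fragments (16.2 to 36.9) and a -log10 q of 12.9. It is the one whose edge is capitalised in the promoter above. With each list sorted by -log10 q and cut into 10 equal parts, part 1 being the strongest, this peak fell in part 3, of which 69.1% had a counterpart. The nearest etoposide summit was 6.20 kb away. The other 5 untreated peaks without a counterpart had 9 to 19 fragments. The one with 9, 43.7 kb past the 3′ end, lay nearer to the coding gene CLIC6 than to RUNX1. The strongest etoposide peak without a counterpart, 34974628 to 34975226, had 14 fragments and a -log10 q of 10.5, and 80.1% of the etoposide peaks in its part of the list were shared. The other, 35011767 to 35012121, had 5 fragments and lay near the bottom of the list at rank 25726.

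RUNX2, the master factor of bone-forming cells, lies on chromosome 6 from 45328330 to 45551082 and had fewer and weaker peaks than RUNX1. Its window held 18.6 untreated and 15.5 etoposide peaks per Mb, above 66.5% and 72.5% of protein-coding genes. At RUNX2, 2 of 6 untreated and 2 of 5 etoposide peaks were shared, beside 51.0% and 64.8% of the whole lists. Of 9 joined regions 2 were in both lists. The first of these, 14.9 kb downstream of the second RefSeq start, had 26 untreated fragments at 45437018 to 45437358 and 22 etoposide fragments at 45437047 to 45437271, with summits 9 bp apart. The second lay 39.3 kb beyond the gene's end, with 18 and 15 fragments and a -log10 q of 11.5 in each list.

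Around these RUNX2 sites the lists named different places. The strongest untreated peak without a counterpart, 45378191 to 45378435, had 16 fragments, and the nearest etoposide summit was 49.3 kb away. It lay inside RUNX2 but just past 45377934, the higher-coordinate end of SUPT3H, a gene that overlaps the RUNX2 span. The strongest etoposide peak without a counterpart, 45445624 to 45445945, had 18 fragments, with the nearest untreated summit 8.63 kb away. Another etoposide peak, 5.33 kb downstream of the second start, had 13 fragments. The weakest untreated peak of the window, with 7 fragments, lay 49.6 kb upstream and inside SUPT3H.

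KLF4, a zinc-finger factor best known for its use in reprogramming, had 2 peaks in each list although the gene is 4.92 kb long. The untreated peak at its start, 107490006 to 107490530 on chromosome 9, had its summit 0.377 kb upstream, with 22 fragments (13.8 to 33.3) and a -log10 q of 12.2. No etoposide peak lay nearer than 14.7 kb to that summit, and 69.1% of untreated peaks in the same part of the list were shared. A stronger site 15.1 kb upstream was in both lists. There the untreated peak, 107504478 to 107505290, had 30 fragments (20.2 to 42.8). It was overlapped by 2 etoposide peaks, 107504656 to 107504997 with 21 fragments (13.0 to 32.1) and 107505114 to 107505302 with 13. The nearer summit was 11 bp away, and the summit with 13 fragments lay inside the gene LOC105376206.

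KLF5, a factor of growing epithelium and smooth muscle, was the gene whose lists had no place in common. On chromosome 13 the untreated summits lay inside the gene, 1.78 and 10.7 kb downstream of the second RefSeq start, with 16 and 10 fragments and -log10 q of 5.64 and 4.82. The stronger etoposide peak, 73056190 to 73056425, lay 1.34 kb downstream of the first start with 19 fragments and a -log10 q of 10.7. The weaker etoposide peak lay 13.3 kb beyond the gene's end with 8 fragments. In the 50 kb beyond the window, 3 untreated and 3 etoposide peaks followed, all of them shared. The nearest pair there was 61.1 kb from the gene, with 26 untreated and 21 etoposide fragments.

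KLF6, an early-response factor of injured tissue, had the densest window of the 10 genes in both libraries, with 54.9 untreated and 36.6 etoposide peaks per Mb. Those densities exceeded 98.8% and 97.3% of protein-coding genes. Its 6 untreated and 4 etoposide peaks lay mostly outside the 9.21 kb gene on chromosome 10. The strongest shared site was 20.6 kb past the 3′ end. There the untreated peak, 3754915 to 3755673, had 33 fragments and was overlapped by etoposide peaks of 24 and 19 fragments. The etoposide summit with 24 fragments lay inside the gene LOC124902540. Further shared sites, 35.2 kb downstream and 21.0 kb upstream, had 11 and 20 untreated against 13 and 20 etoposide fragments. At each of these sites the summits of the libraries were 345 bp apart, and both summits of the downstream site lay inside the gene LOC105376360. The strongest untreated peak without a counterpart, 25.4 kb upstream, had 24 fragments and 4.70 kb to the nearest etoposide summit. Inside the gene, an untreated peak 2.02 kb downstream of the start had 18 fragments and no counterpart.

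The strongest binding in the KLF6 neighbourhood fell outside the 50 kb rule. A shared peak 67.4 kb upstream, at 3852440 to 3852734 in the untreated list, had 79 fragments, a -log10 q of 56.7 and rank 89. Its etoposide counterpart, 3852456 to 3852717, had 61 fragments, a -log10 q of 42.5 and rank 109. Both stood above every peak inside the 10 windows.

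TWIST1 and TWIST2, close relatives that direct mesenchymal development, each had 1 peak per list, and each was shared. The TWIST1 site lay inside the 4.59 kb gene on chromosome 7, 1.5 kb from its lower-coordinate end. The untreated peak, 19114405 to 19114646, had 31 fragments (21.1 to 44.0), and the etoposide peak, 19114413 to 19114690, had 24 (15.4 to 35.7). Their folds were 11.4 and 11.5 and their ranks 2035 and 1525, in part 1 of each list. The TWIST2 site lay 38.2 kb beyond the 3′ end on chromosome 2, with no summit inside the 62.5 kb gene. The untreated peak, 238948307 to 238948909, had 45 fragments (32.8 to 60.2) and rank 548, and the etoposide peak, 238948355 to 238948876, had 31 (21.1 to 44.0) and rank 513. Folds there were 13.7 and 14. Despite these strong single sites, their windows held 9.56 and 6.16 peaks per Mb in either library, where the median over all protein-coding genes was 9.91 untreated and 8.05 etoposide peaks per Mb.

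TCF21, a factor of lung, heart and kidney mesenchyme on chromosome 6, had no summit within 50 kb. The nearest untreated summit was 57.4 kb away with 12 fragments, and the nearest etoposide summit was 74.0 kb away with 8. A shared pair lay 95.9 kb away with 20 untreated and 13 etoposide fragments. Of all protein-coding genes 23.9% had a summit of neither list within 50 kb.

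PRRX1, on chromosome 1 from 170662768 to 170739421, had 8 untreated and 5 etoposide peaks, and each etoposide peak had an untreated counterpart. The same held at KLF4, KLF6, TWIST1, TWIST2 and SNAI2, and 64.8% of all etoposide peaks had one. Densities of 45.3 and 28.3 peaks per Mb were above those of 96.3% and 93.4% of protein-coding genes. A double site in the middle of the gene, 43.9 and 44.3 kb downstream of the RefSeq start, held the strongest peak. At 170708240 to 170708522 there were 57 untreated fragments (43.2 to 73.9) on a local background of 5.74, and at 170708262 to 170708525 there were 35 etoposide fragments (24.4 to 48.7) on a background of 3.12. Folds were 8.61 and 8.74, ranks 865 and 1298, and the summits 12 bp apart. The neighbouring summit had 31 and 26 fragments. Near the 3′ end of the gene was a shared site with more etoposide than untreated fragments, 15 against 9, at summits 365 bp apart.

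Upstream of PRRX1 the untreated list had 3 peaks and the etoposide list 1. The untreated peak 39.6 kb upstream, 170622921 to 170623280, had 26 fragments (17 to 38.1), a -log10 q of 19.0 and rank 3552. It was the strongest peak without a counterpart near any of the 10 genes. Of the untreated peaks in its part of the list 80.8% were shared. At 28.4 kb upstream an untreated peak of 19 fragments had no counterpart, although an etoposide summit lay 0.361 kb away. That etoposide peak, with 12 fragments, overlapped the next untreated peak, which had 17.

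SNAI2, on chromosome 8, differed most in density between the libraries. Its window held 5 untreated peaks, 48.2 per Mb and above 97.4% of protein-coding genes, and 1 etoposide peak, 9.63 per Mb and above 61.2%. The 4 untreated peaks without a counterpart lay 2.08, 12.9, 14.2 and 25.8 kb from the lower-coordinate end of the gene. They had 20, 20, 15 and 16 fragments and a -log10 q of 4.91 to 9.21, and the parts of the list they belong to were shared at 27.5% to 48.8%. The shared peak was the farthest, 49.3 kb past the higher-coordinate end, with 10 untreated and 7 etoposide fragments. It lay just inside the 50 kb limit, as did the peak inside SUPT3H in the RUNX2 window. The nearest summits just outside the limit were those of TCF21 at 57.4 kb and KLF4 at 59.0 kb.

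**Figure D2:**
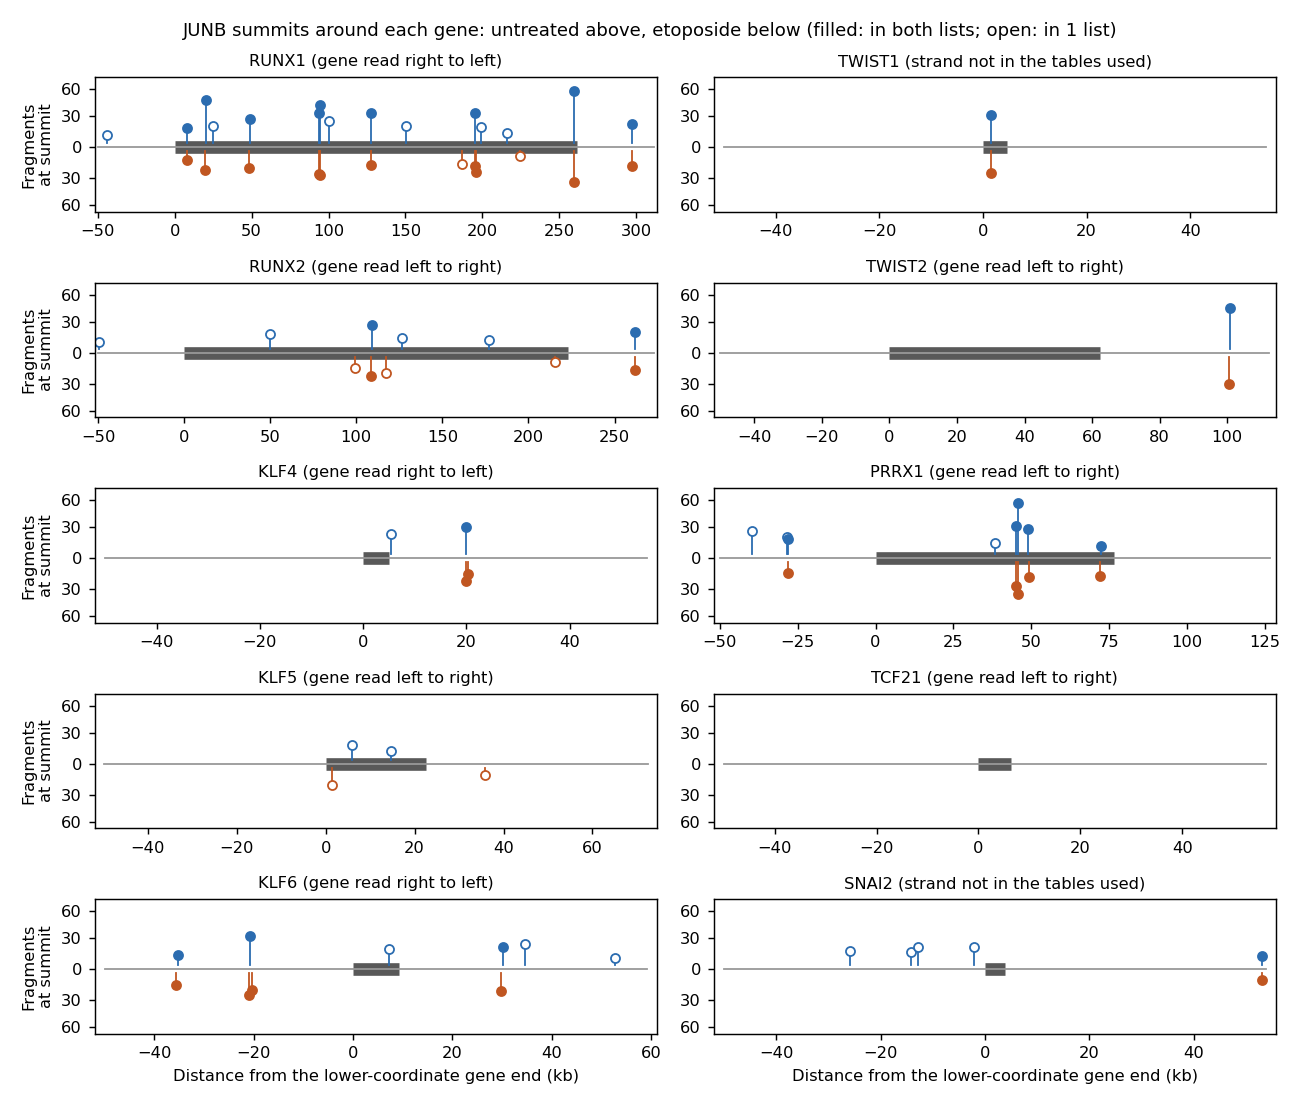
Positions of JUNB summits around each gene. The horizontal axis is the distance in kb from the lower-coordinate gene end, the grey block is the gene and the thin line the 50 kb on either side. Stem length is the number of fragments at the summit, untreated upward in blue and etoposide downward in orange, with filled circles for peaks found in both lists and open circles for peaks of 1 list. RUNX1 and PRRX1 carry stems of 58 and 57 untreated fragments, SNAI2 has 4 open untreated circles on 1 side, and the TCF21 panel is empty.

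Taking the 10 windows as a set, 23 of 46 untreated peaks were shared, 50% (Wilson 95% interval 36.1% to 63.9%), beside 51.0% of the whole list. Of 33 etoposide peaks 26 were shared, 78.8% (62.2% to 89.3%), beside 64.8% of the whole list, a value inside that interval. There were 7 etoposide peaks without a counterpart, of which 3 were at RUNX2, 2 at RUNX1 and 2 at KLF5. Joined across the lists the peaks made 53 regions, of which 23 were in both lists, 23 were untreated without a counterpart and 7 were etoposide without one. Regions were not joined over the whole lists, so the shares to read beside these counts are the 51.0% and 64.8% of single peaks. The number of etoposide peaks was 0.717 times the untreated number, beside 0.791 for the whole lists, and 0.677 with RUNX1 left out. The order of the numbers turned when the 10000 strongest peaks of each list were taken, with 18 untreated and 21 etoposide peaks near the genes. That cut makes the lists equal in length, so 0.791 is no longer the value to set beside it. At a -log10 q of at least 10 in each list the order held, with 23 untreated and 18 etoposide peaks.

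By median, peaks found in both lists had more fragments than peaks of 1 list. Near the 10 genes the shared untreated peaks had a median of 30 fragments (9 to 58), and those without a counterpart 16 (7 to 26). For etoposide the medians were 19.5 (7 to 35) and 13 (5 to 19). The whole lists showed the same order, with medians of 19 and 12 untreated and 14 and 10 etoposide fragments. Part 1 of the untreated list included 9 of the 46 peaks, and each of the 9 was shared, beside 95.7% of all untreated peaks in that part. For etoposide it included 4 of 33, again each shared, beside 97.4%.

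Fragment numbers of the 23 untreated shared peaks were set beside those of the nearest etoposide summit in the overlapping peak. They were lower in the etoposide library at 20, higher at 2 (1 at KLF6 and 1 at PRRX1) and equal at 1, at KLF6. At the higher and equal pairs the summits lay 345 to 365 bp apart, and at the lower ones 6 to 406 bp. Among all shared untreated peaks 73.4% had fewer etoposide fragments. The median etoposide to untreated ratio was 0.700 near the 10 genes and 0.778 over all pairs. By gene the ratios ran from 0.438 to 0.788 at RUNX1, were 0.846 and 0.833 at RUNX2, and were 0.774 at TWIST1 and 0.689 at TWIST2. They ran from 0.576 to 1.18 at KLF6 and from 0.571 to 1.67 at PRRX1, and were 0.700 at KLF4 and at SNAI2. Where 2 etoposide peaks overlapped 1 untreated peak, these ratios used the nearer summit alone. That was the weaker peak at KLF6 (19 fragments beside 24) and RUNX1 (17 beside 23), and the stronger at KLF4 (21 beside 13). The smallest background under any peak was 0.482 fragments for untreated and 0.377 for etoposide cells. Read depth was not used here, and whether it differed or had a part in these ratios was not tested. Summits of the pairs lay a median of 40 bp apart (6 to 406 bp), and 13 of 23 were within 50 bp.

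**Figure D3:**
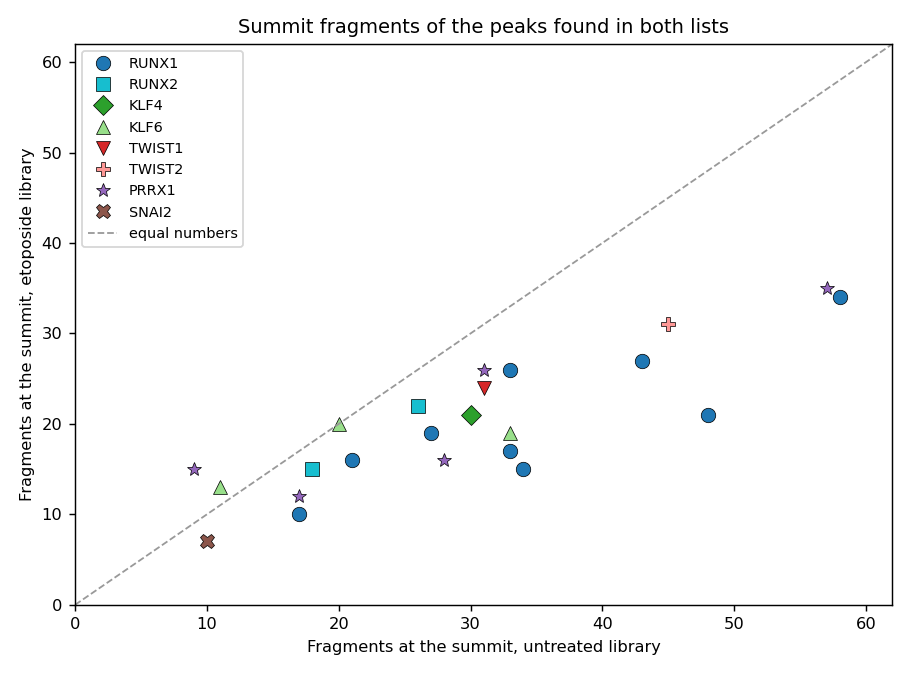
Fragments at the summit in the untreated library (horizontal axis) and at the nearest overlapping etoposide summit (vertical axis) for the 23 untreated peaks with a counterpart, marked by gene. The dashed line marks equal numbers: 20 points lie below it, 2 above and 1 on it, and numbers are not scaled for depth.

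Long genes have more room for peaks, so the windows were also compared per Mb. The 10 windows covered 1.68 Mb and held 27.4 untreated and 19.7 etoposide peaks per Mb. The median density of the 10 genes was 18.8 untreated and 15.9 etoposide peaks per Mb, and over all protein-coding genes it was 9.91 and 8.05. KLF6, SNAI2, PRRX1 and RUNX1 had 41.5 to 54.9 untreated peaks per Mb, beyond the upper quartile of 22.8. KLF4, RUNX2 and KLF5 had 16.3 to 19.1, and TWIST1, TWIST2 and TCF21 had 9.56 or less. In the etoposide list KLF6, RUNX1 and PRRX1 stayed above the upper quartile of 16.6 with 28.3 or more, KLF4 had 19.1, and SNAI2 had 9.63.

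**Figure D4:**
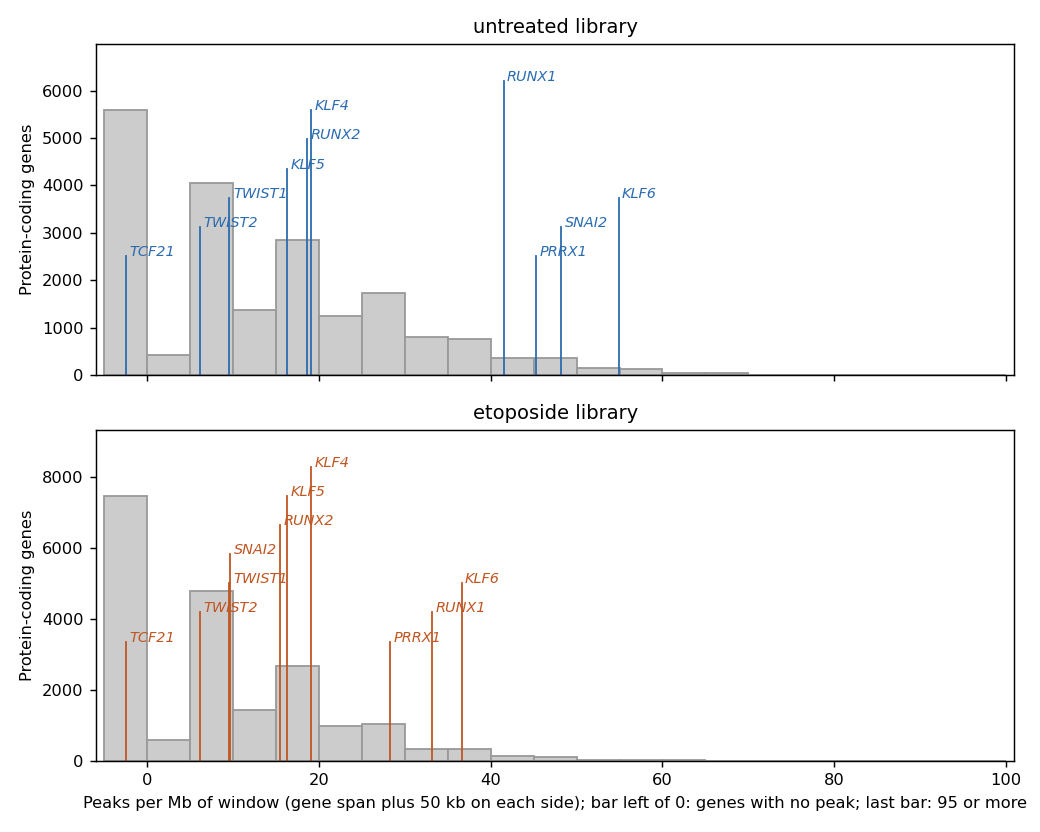
Peaks per Mb of window (horizontal axis; gene span plus 50 kb on each side) for all 19974 protein-coding genes as grey bars (vertical axis, number of genes), with the 10 genes as labelled lines, for the untreated library above and the etoposide library below. The bar left of 0 holds genes with no peak, where TCF21 is drawn, and line height has no meaning. KLF6, SNAI2, PRRX1 and RUNX1 lie at 41.5 or more in the untreated library, and SNAI2 lies at 9.63 in the etoposide library.

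Family members and partners of the 10 genes were counted in the same way, from a list of 58 genes, all found in the annotation. Of these, 43 had an untreated peak (74.1%, beside 72.0% of all protein-coding genes), 41 an etoposide peak (70.7%, beside 62.6%) and 31 a shared untreated peak (53.4%, beside 51.1%). Their median densities were 14.7 untreated and 9.39 etoposide peaks per Mb, beside 9.91 and 8.05 over all protein-coding genes. The untreated peaks of the 58 genes numbered 196 and their etoposide peaks 128, with 40.3% and 60.9% shared, beside 51.0% and 64.8% of the whole lists.

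The RUNX partners included CBFB, the shared subunit that steadies RUNX proteins on DNA, with 5 peaks in each list and 3 shared in each. The corepressor gene TLE1 had 9 untreated and 2 etoposide peaks, and RUNX3, the third RUNX gene, had 1 in each list, not shared. CBFA2T3, another corepressor gene, had none. Beside 72.0% and 62.6% of all protein-coding genes, 8 of 14 other KLF genes (57.1%) had an untreated peak and 9 (64.3%) one after etoposide. KLF12, a gene of 620 kb, led them with 20 and 17, KLF2 had 4 and 3 beside a span of 3.86 kb, KLF16 had 0 and 1, and KLF1, KLF3, KLF8, KLF11 and KLF14 had none.

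Of the 12 helix-loop-helix partners and inhibitors, 10 (83.3%) had an untreated peak and 8 (66.7%) one after etoposide, beside the same 72.0% and 62.6%. TCF12 and TCF4, dimer partners of TWIST proteins, had 12 and 8 untreated and 12 and 6 etoposide peaks, whereas TCF3 had 2 untreated and 0 etoposide peaks. HAND1 had 1 untreated and 0 etoposide peaks, and TCF15 and SCX had none. The inhibitor gene ID1 had 4 and 1. Among the SNAI and ZEB repressors, SNAI1 had 3 peaks in each list with 1 shared in each, ZEB1 had 4 and 5, ZEB2 had 8 and 5, and SNAI3 had none. Of 21 other mesenchymal regulators, 16 (76.2%) had an untreated peak and 15 (71.4%) one after etoposide, beside the same 72.0% and 62.6%. BNC2, a zinc-finger factor of fibroblasts, had 16 and 11, GLI2, a Hedgehog effector, had 12 and 3, and PRRX2, the relative of PRRX1, had 6 and 2. FOXF1 and OSR1 had 1 untreated peak and 0 after etoposide, and FOXF2 had 0 and 1. EN1, TBX18, MEOX2 and EBF2 had none in either list.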

How the data were processed

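JUNB CUT&RUN was done on IMR-90 fibroblasts, 1 untreated and 1 etoposide library, grouped by the treatment label. Bowtie2 and MACS2, and the builds hg38 and mm10, are named per the submitters' processing notes, with no versions or settings. Contig names are those of GRCh38. The authors deposited 1 peak list per library (33491 and 26590 peaks) with a score, a fold ratio of summit signal over local background, -log10 p, -log10 q and the summit offset in bp. These deposited values were not scaled between the lists, also where both libraries' folds, -log10 q or ranks are given side by side. The fragment numbers set against each other between libraries were solved from them. Peaks on chromosomes 1 to 22 and X were kept, and peaks elsewhere were not used here.

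Gene spans came from RefSeq GRCh38, patch 14, and strand from its promoter table. Exons were not used here. Ranks follow -log10 q. Fragments at the summit were the whole number that, with a pseudocount of 1, gave the deposited fold and a Poisson -log10 p within 0.001. For the strongest peaks of the lists a wider tolerance allowed for rounding of the fold. Such a number was found for 100% of peaks. This step was tested on simulated data made with the same formula. The simulation did not reach backgrounds as high as at some RUNX1 and PRRX1 peaks, or summits of 5 fragments. Shares have Wilson 95% intervals and fragments exact Poisson ones, for counting error alone.

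The 10 genes and the 58 related genes were chosen with earlier results of these data known. Named singly by rule were each gene's strongest shared pair, its strongest peak of each list without a counterpart, peaks within 1 kb of a start and peaks in the strongest 10% of their list. Other peaks were described beyond this rule, among them weaker peaks of RUNX1, RUNX2, KLF6 and PRRX1. So were the sites outside the windows of KLF5, KLF6 and TCF21. Of the related genes, the 2 with the most peaks in each list and those with peaks in 1 list or with none were named, and CBFB, TLE1, RUNX3, KLF2, TCF4, SNAI1, ZEB1, ZEB2, ID1, GLI2 and PRRX2 were added after their values were seen. Alternatives changed the window, the list threshold and length, and the overlap. Analyses used Python 3.11.15, pandas 2.3.3, NumPy 2.4.6 and SciPy 1.17.1.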

Additional observations from a re-analysis of the deposited data

How the results depend on the processing

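No paired analysis was possible because each condition had 1 library, and for the same reason no replicate could be left out. Leaving out RUNX1 was chosen after the data were seen, and the other alternatives were set out beforehand with earlier results known. Of 45 values computed under alternatives, 33 stayed within 1.5 times the reported count or within the interval of the reported share, and 12 did not. Within 10 kb in place of 50 kb there were 28 untreated and 21 etoposide peaks, 5 genes with an etoposide peak and 4 with a shared peak. At a -log10 q of at least 10 there were 23 untreated and 18 etoposide peaks, and 65.2% of the untreated peaks were shared. Among the 10000 strongest peaks of each list there were 18 untreated peaks, 77.8% of them shared, and 21 etoposide peaks. The order of the peak numbers turned there, where the lists were cut to equal length. With overlap of at least 50% of both peaks, 51.5% of the etoposide peaks were shared. Shares of the whole lists were not computed at these settings, so none stands beside 65.2%, 77.8% and 51.5%. In the whole untreated list the shared percentage rose with strength, from 21.0% in part 10 to 95.7% in part 1. Without RUNX1 there were 21 etoposide peaks. The cause of these shifts was not tested beyond the smaller lists and windows themselves. The weakest peaks near the genes had 7 untreated and 5 etoposide fragments at the summit, and how depth bears on their listing was not tested.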
